A study of Mus musculus with 9 samples.

Results

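The 7 genes described here, *Lurap1l*, *Mpdz*, *Zdhhc21*, *Frem1*, *Ttc39b*, *Snapc3* and *Psip1*, are the listed neighbours of *Nfib* on mouse chromosome 4. They were chosen by position among the 14108 genes counted in every tumour, after the shift of this stretch in 1 tumour, the one labelled HR1 replicate 1, had been seen. All 7 passed the filter on low counts, as did 14086 genes in all. Counts came from 9 primary tumours of the models HR1, LM1 and LM9, with 3 tumours per model, grown in the mammary fat pad of female NOD.CB17-Prkcd<scid>/J (NOD/SCID) mice that were 4 to 8 weeks old when 250000 cells were injected. GFP-positive cells were sorted from each tumour and poly(A) RNA was sequenced. HR1 is a non-metastatic mammary cancer line from a single tumour of a transgenic mouse with a mutationally activated *PIK3CA* under the CAG promoter. LM1 and LM9 are lines from lung metastases, formed by HR1 cells with a doxycycline-inducible *piggyBac* transposon, a mobile element with a CAG promoter of its own. All 3 models thus share the *PIK3CA* transgene, and the transposon was introduced only for the LM lines. The labels number the tumours and do not tie each number to a mouse, so p-values measure the spread between these tumours.

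*Nfib* encodes a nuclear factor I transcription factor, which binds DNA as a dimer at a palindrome of TTGGC elements and is known for roles in lung and brain development and in metastasis. Genes that lie next to each other on a chromosome can share a copy number state or a regulatory domain, or be driven by separate elements. The 7 neighbours have unrelated products: an adaptor-like protein, a tight junction scaffold, a palmitoyltransferase, a basement membrane protein, a regulator of sterol receptors, a subunit of the factor for small nuclear RNA genes and a chromatin reader.

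On GRCm38, the build also called mm10, *Lurap1l* spans 80910686 to 80954301 of chromosome 4 on the plus strand and *Mpdz* 81278499 to 81442897 on the minus strand. *Nfib* follows at 82290173 to 82506751 on the minus strand. On its far side lie *Zdhhc21* (82798738 to 82859897, minus), *Frem1* (82897920 to 83052506, minus), *Ttc39b* (83220300 to 83324309, minus), *Snapc3* (83415711 to 83473019, plus) and *Psip1* (83455680 to 83486463, minus). Gene starts are thus 1.60 and 1.06 Mb before the *Nfib* start for the first 2 members, and 0.35 to 0.98 Mb after it for the other 5. *Snapc3* and *Psip1* overlap tail to tail. Their exons share 483 bases on opposite strands, 7.14% of the exons of *Snapc3* and 9.5% of those of *Psip1*. The strand setting of the counting is not given in the sources used here, so reads of this stretch cannot be assigned to either gene with certainty.

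Promoters were read from RefSeq for 5 of the 7 members, as the 250 bases before and 50 bases after an annotated start on GRCm38.p6. They are shown because 4 of these genes were high in the same tumour and the remaining one, *Lurap1l*, was low there. Capitals mark TTGGC or its reverse complement GCCAA, the nuclear factor I element.
Lurap1l (chr4:80910436-80910735, plus strand): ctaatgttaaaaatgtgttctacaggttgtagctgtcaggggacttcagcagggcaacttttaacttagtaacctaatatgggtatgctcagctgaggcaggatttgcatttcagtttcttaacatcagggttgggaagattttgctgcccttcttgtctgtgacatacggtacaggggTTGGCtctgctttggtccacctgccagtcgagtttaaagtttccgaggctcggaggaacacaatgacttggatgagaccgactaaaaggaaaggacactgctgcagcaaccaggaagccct
Zdhhc21 (chr4:82859624-82859923, minus strand): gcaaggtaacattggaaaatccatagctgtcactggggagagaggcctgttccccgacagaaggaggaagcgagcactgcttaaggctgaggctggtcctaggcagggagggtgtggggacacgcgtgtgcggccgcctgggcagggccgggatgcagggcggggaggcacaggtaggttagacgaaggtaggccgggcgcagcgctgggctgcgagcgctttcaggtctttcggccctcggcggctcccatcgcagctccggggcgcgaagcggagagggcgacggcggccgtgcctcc
Frem1 (chr4:83052117-83052416, minus strand): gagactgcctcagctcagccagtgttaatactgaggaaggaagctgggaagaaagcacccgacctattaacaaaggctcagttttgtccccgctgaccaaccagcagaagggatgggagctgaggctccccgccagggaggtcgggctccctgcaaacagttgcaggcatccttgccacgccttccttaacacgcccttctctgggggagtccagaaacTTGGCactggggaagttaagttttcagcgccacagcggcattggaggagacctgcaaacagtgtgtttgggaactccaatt
Ttc39b (chr4:83324140-83324439, minus strand): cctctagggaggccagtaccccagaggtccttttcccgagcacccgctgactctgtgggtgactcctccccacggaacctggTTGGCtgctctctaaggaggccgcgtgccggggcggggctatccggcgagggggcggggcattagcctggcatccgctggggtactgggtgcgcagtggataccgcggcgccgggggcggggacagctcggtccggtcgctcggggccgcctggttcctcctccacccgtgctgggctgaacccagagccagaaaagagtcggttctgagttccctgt
Snapc3 (chr4:83417474-83417773, plus strand): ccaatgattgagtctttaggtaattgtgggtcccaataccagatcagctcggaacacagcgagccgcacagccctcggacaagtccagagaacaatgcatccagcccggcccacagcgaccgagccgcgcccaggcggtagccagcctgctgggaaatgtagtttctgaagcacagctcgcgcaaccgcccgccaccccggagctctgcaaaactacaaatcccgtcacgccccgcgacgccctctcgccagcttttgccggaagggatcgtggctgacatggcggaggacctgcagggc

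The element was found once in the windows of *Lurap1l*, *Frem1* and *Ttc39b*, starting at -71, -31 and -168 bases from the annotated start, and not in those of *Zdhhc21* and *Snapc3*. A second annotated start of *Frem1* also had 1 element, at -229. No window held the whole palindrome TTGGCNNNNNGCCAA, and like the element it was searched on both strands. Of 32851 promoters of the same length, 46.7% held an element and 12, or 0.0365%, held the palindrome. The GC content ran from 46.3% to 68.7% over the windows of the 5 members, against a median of 52.7% over all promoters, and the number of CpG dinucleotides from 5 to 26, against a median of 7.

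The tumour labelled HR1 replicate 1 stood apart from the other tumours across the whole table, and whether it is in the same state as the other tumours labelled HR1 cannot be told from the files. Its counts differed from those of HR1 replicates 2 and 3 by a mean chi-square of 698 and 651 per gene, against 174 between replicates 2 and 3 and 34.4 to 79.9 within the LM models. Total counts were 32393958 in this tumour and up to 46681945 in the others. The sum of the fibroblast markers was above that of the epithelial markers in all 9 tumours, with single markers uneven. The 5 listed of 6 epithelial markers summed to 7.55 to 179.8 CPM (counts scaled by TMM-adjusted library size) over all tumours, with *Epcam* at 0.0254 to 4.49 CPM, *Cdh1* at 0.0916 to 1.2 CPM and *Krt14* at 1.56 to 175 CPM. The 7 fibroblast markers summed to 8971 to 35156 CPM, with *Col1a2* at 35 to 40.5 CPM in LM1 and *Lum* at 19.7 to 78.1 CPM in LM9. The epithelial sum was 7.55 CPM in HR1 replicate 1, the lowest of the 9 tumours, and 34.9 and 121 CPM in replicates 2 and 3. The fibroblast sum was 35156 CPM in HR1 replicate 1 and 22039 and 22866 CPM in replicates 2 and 3. Within it, *Dcn*, a matrix proteoglycan, was at 17605 CPM in replicate 1 against 432 and 329 CPM, and *Col1a2*, a collagen chain, at 44.2 CPM against 1472 and 2725 CPM. The 6 listed of 8 leukocyte markers summed to 231, 508 and 119 CPM in replicates 1, 2 and 3, and the 4 listed of 5 endothelial markers to 7.38, 23.7 and 4.4 CPM. Whether these differences have a part in the levels of the *Nfib* neighbours was not tested, and in bulk RNA fewer cells of a type and less RNA per cell cannot be told apart.

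The 5 genes beyond *Nfib*, from *Zdhhc21* to *Psip1*, were all highest in HR1 replicate 1, at 7.97 to 26.1 times the mean of HR1 replicates 2 and 3. *Nfib* itself was 63.7 times that mean in the same tumour. Of the 2 genes before *Nfib*, *Lurap1l* was lowest in HR1 replicate 1, 47.7-fold below the mean of the other HR1 tumours, and *Mpdz* was 2.78 times that mean but within the range of the other models. These values led to the choice of the genes and are a description. For scale, HR1 replicate 1 was over 2 times the highest other tumour for 5 of the 7 members and for 3.98% of all genes, and below the lowest other tumour by the same factor for 1 member and for 6.89% of all genes.

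*Psip1* encodes LEDGF, which binds methylated histone H3 and tethers MLL complexes to chromatin. It was at 1227 CPM in HR1 replicate 1, and at 46.5 and 47.5 CPM in replicates 2 and 3. The LM1 tumours had 90.4, 84.1 and 65.5 CPM and the LM9 tumours 50.2, 52.2 and 47 CPM. HR1 replicate 1 was 13.6 times the highest of the other 8 tumours, HR1 replicates 2 and 3 lay with the LM9 tumours, and the LM1 tumours lay above both.

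*Ttc39b*, whose product lowers the amount of the liver X receptors, was at 1077 CPM in HR1 replicate 1 and at 49.7 and 45.8 CPM in replicates 2 and 3. Levels in LM1 were 65.6, 71.7 and 69.9 CPM and in LM9 52.4, 50.3 and 54.9 CPM. HR1 replicate 1 was 15 times the highest other tumour. The other 8 lay between 45.8 and 71.7 CPM, with HR1 replicates 2 and 3 lowest, the LM9 tumours next and the LM1 tumours above them.

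*Snapc3* encodes a subunit of SNAPc, the factor that starts transcription of small nuclear RNA genes. Its level was 339 CPM in HR1 replicate 1, and 17.8 and 11.1 CPM in replicates 2 and 3. In LM1 it was at 36, 34.8 and 35.1 CPM and in LM9 at 18.5, 17.3 and 17.1 CPM. HR1 replicate 1 was 9.39 times the highest other tumour. The LM1 tumours varied little (35.3 ± 0.647 CPM, mean ± s.d., n = 3) and lay above all LM9 tumours (17.6 ± 0.729 CPM, n = 3).

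*Zdhhc21* encodes an enzyme that attaches palmitate to proteins. It was at 241 CPM in HR1 replicate 1 and at 12.4 and 6.46 CPM in replicates 2 and 3. In LM1 it was at 26.2, 28.5 and 24.1 CPM and in LM9 at 15.4, 15 and 13.1 CPM. HR1 replicates 2 and 3 were the lowest 2 of the 9 tumours, and replicate 1 was the highest.

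*Frem1* encodes a matrix protein that forms the Fraser complex with FRAS1 and FREM2 below epithelia. It was at 133 CPM in HR1 replicate 1 and at 22.2 and 11.2 CPM in replicates 2 and 3. The LM1 tumours had 2.27, 3.96 and 5.26 CPM, and the LM9 tumours 0.107, 0 and 0.0225 CPM. The 3 models did not overlap for *Frem1*, with HR1 highest and LM9 lowest. The LM9 values rest on 5, 0 and 1 counts. The 0 among 44979432 counts in LM9 replicate 2 allows up to 3 counts, a limit that covers counting error only.

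*Mpdz* encodes MUPP1, a scaffold with many PDZ domains at tight junctions. It was at 35.6, 17.1 and 8.47 CPM in HR1 replicates 1, 2 and 3. Levels in LM1 were 37.3, 50.5 and 31.9 CPM and in LM9 485, 549 and 436 CPM. HR1 replicate 1 fell among the LM1 tumours and ranked 6 of 9, and the LM9 tumours lay far above all others.

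*Lurap1l* encodes a relative of LURAP1, an adaptor of the kinase MRCK in actomyosin movement. It was at 1.16 CPM in HR1 replicate 1, from 35 counts, and at 61.4 and 49.7 CPM in replicates 2 and 3. In LM1 it was at 36.6, 33.3 and 38.4 CPM and in LM9 at 101, 132 and 109.6 CPM. The lowest of the other 8 tumours was 28.6 times HR1 replicate 1, and no other tumour was under 33.3 CPM.

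**Figure D1:**
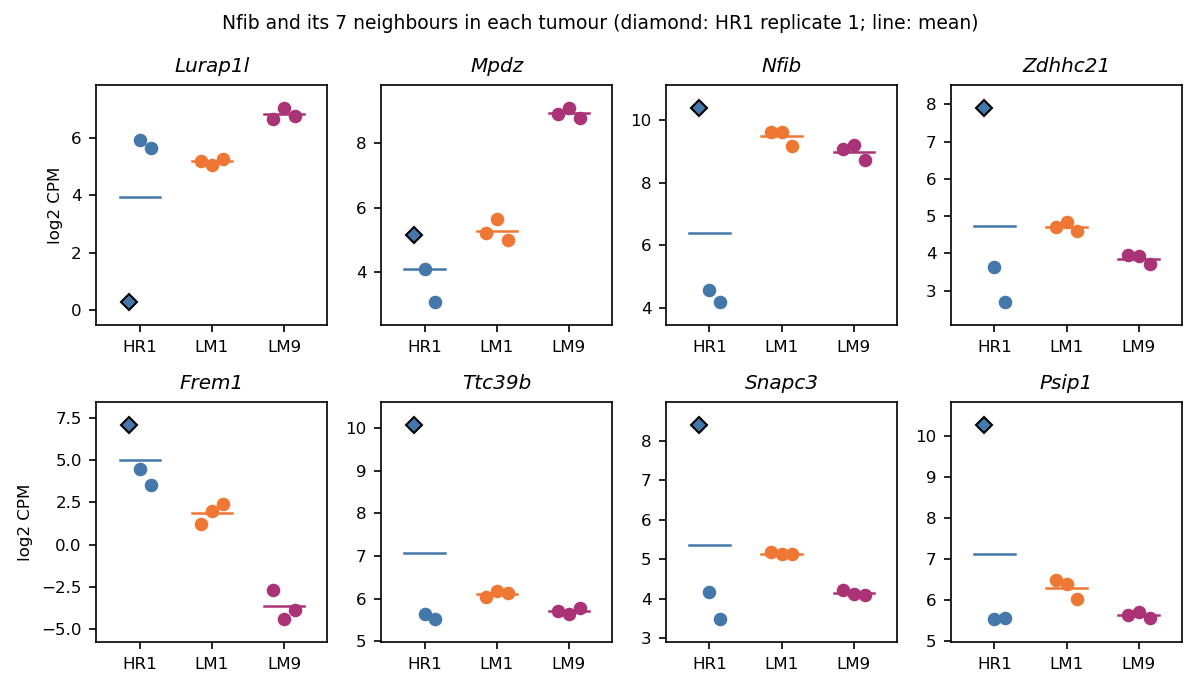
Level of Nfib and the 7 neighbours in each tumour (y axis, log2 CPM with a prior count of 2; x axis, model, 3 tumours each; the diamond is HR1 replicate 1 and the line the mean of the model). HR1 replicate 1 is the highest tumour for Nfib and for Zdhhc21 to Psip1, the lowest for Lurap1l, and among the LM1 tumours for Mpdz, while the LM9 tumours are highest for Lurap1l and Mpdz, without overlap.

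*Nfib* differed from its neighbours in the LM tumours. It was at 1343, 23.9 and 18.3 CPM in HR1 replicates 1, 2 and 3. In LM1 it was at 786, 791 and 579 CPM and in LM9 at 532, 583 and 421 CPM. For *Nfib*, HR1 replicate 1 was thus 1.7 times the highest LM tumour, whereas the 5 neighbours beyond it were at 6 (*Frem1*), 8.46 (*Zdhhc21*), 9.39 (*Snapc3*), 13.6 (*Psip1*) and 15 (*Ttc39b*) times the highest of the other 8 tumours.

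On a scale per length (CPM per kb of exons), *Psip1* was the highest of these genes in HR1 replicate 1, at 241, followed by *Ttc39b* at 106, *Nfib* at 89.8, *Snapc3* at 50.1, *Zdhhc21* at 18.6, *Frem1* at 9.53, *Mpdz* at 2.86 and *Lurap1l* at 0.38. In the LM9 tumours the order was another one. There, *Mpdz* at 35.1 to 44.1, *Lurap1l* at 32.9 to 43.2 and *Nfib* at 28.1 to 39 CPM per kb overlapped in their ranges, and the next, *Psip1*, was at 9.25 to 10.3 CPM per kb.

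The change in HR1 replicate 1 continued past the last member and was not seen at *Cntln*. *Ccdc171*, the next listed gene, which starts 1.02 Mb from the *Nfib* start and codes for a coiled-coil protein, was at 27.8 CPM in HR1 replicate 1 and at 0.54 to 1.29 CPM in the other 8 tumours. *Bnc2*, a zinc finger gene 2.17 Mb from the *Nfib* start, was at 8.68 CPM in HR1 replicate 1 and at 0.335 to 2.54 CPM in the others. *Cntln*, a centrosome gene at 2.38 Mb, was at 1.43 CPM in HR1 replicate 1, within the 1.19 to 2.45 CPM of the others. *Bnc2* and *Cntln* were named after their values had been seen. On the other side the next listed gene is *Ptprd*, a receptor phosphatase 4.30 Mb before *Nfib*. It was at 44.3, 2.99 and 18.3 CPM in HR1 replicates 1, 2 and 3 and at 0.0229 to 0.43 CPM in the 6 LM tumours, so that all HR1 tumours were high.

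**Figure D2:**
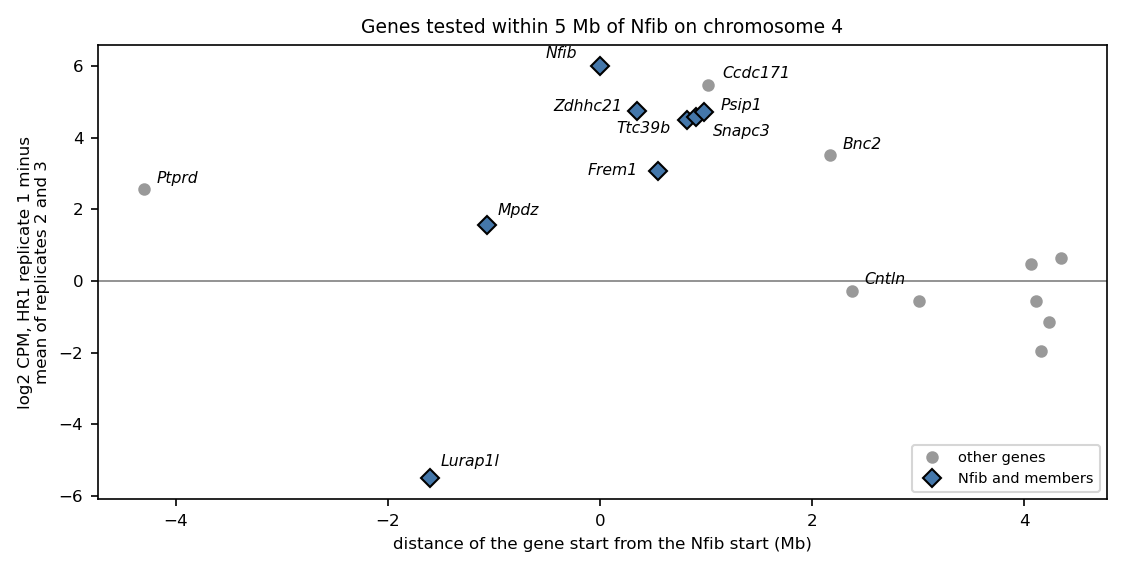
Level in HR1 replicate 1 minus the mean of HR1 replicates 2 and 3 (y axis, log2 CPM) against the distance of the gene start from the Nfib start (x axis, Mb), for each tested gene within 5 Mb. The difference is 3.07 to 6.0 from Nfib to Bnc2, 1.56 for Mpdz and -5.51 for Lurap1l, and -0.27 for Cntln, the first gene past Bnc2. For Ptprd, 4.30 Mb before Nfib, it is 2.57.

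Against the median of the other 8 tumours, HR1 replicate 1 was higher by 3.98 (*Zdhhc21*), 5.45 (*Frem1*), 4.33 (*Ttc39b*), 4.22 (*Snapc3*), 4.58 (*Psip1*), 5.13 (*Ccdc171*) and 2.36 (*Bnc2*) on the log2 CPM scale. These 7 genes are consecutive among the 878 tested genes of chromosome 4. They made up its longest run of genes at least 2 log2 units above the median, with the second longest at 3 genes, and 59 genes, or 6.72% of the chromosome, past that value in all. Over all chromosomes 5.85% of genes were past it. Longest runs on the other chromosomes were 1 to 5 genes, except on chromosome 18, where one reached 10 genes, so a run of this length was not confined to the surroundings of *Nfib*. *Nfib*, next to the run, was 1.27 above the median of the other tumours, which included 6 LM tumours with high *Nfib*. The 860 tested genes of chromosome 4 outside the 5 Mb on either side of *Nfib* had a median of -0.07 in HR1 replicate 1, against -0.05 over all genes tested.

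Relative to HR1 replicates 2 and 3, the same 5 members beyond *Nfib* were higher by close amounts on the log2 CPM scale: 4.75 for *Zdhhc21*, 4.49 for *Ttc39b*, 4.58 for *Snapc3* and 4.71 for *Psip1*, with *Frem1* apart at 3.07. The 2 reference tumours themselves differed, at 22.2 and 11.2 CPM for *Frem1*, 12.4 and 6.46 CPM for *Zdhhc21* and 17.8 and 11.1 CPM for *Snapc3*.

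The genes were chosen after the shift in HR1 replicate 1 had been seen, so the contrast with the other tumours is a description. In no other tumour did the 5 members beyond *Nfib* move together by this much. Their median difference from the other 8 tumours was -0.33 and -0.39 in HR1 replicates 2 and 3, 0.66 to 0.78 in the LM1 tumours and -0.56 to -0.30 in the LM9 tumours, against 4.33 in HR1 replicate 1. The LM9 tumours were instead marked by single genes. *Mpdz* was 3.58 to 3.91 above and *Frem1* was at -6.60 to -4.90 from the median of the others, with *Lurap1l* 1.21 to 1.60 above it.

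**Figure D3:**
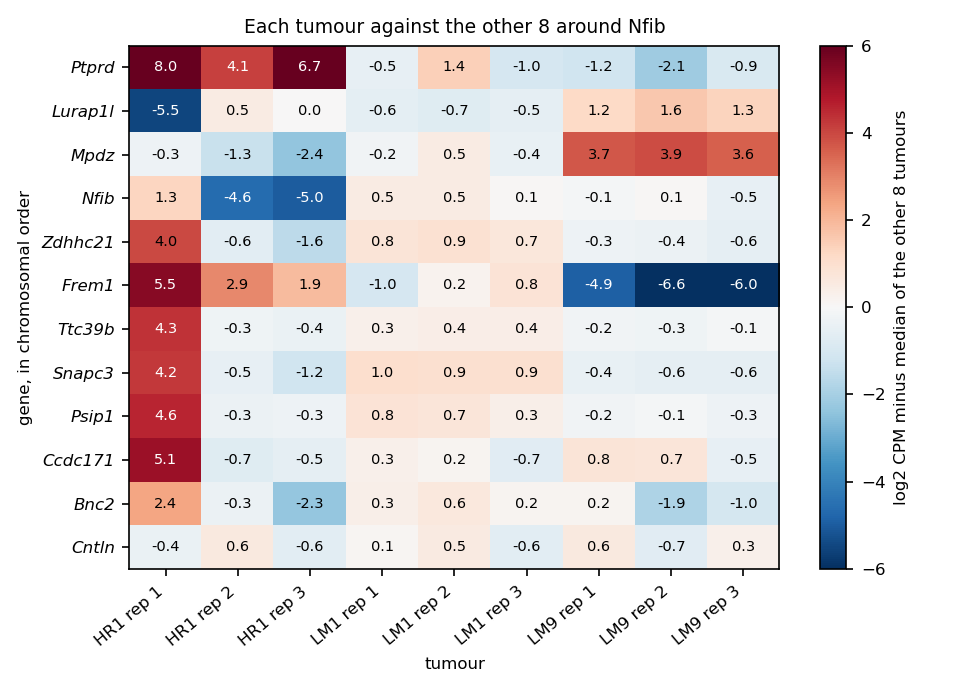
Log2 CPM of each tumour (columns) minus the median of the other 8 tumours, for the listed genes from Ptprd to Cntln in chromosomal order (rows; red, higher; blue, lower; the colour scale ends at 6 in either direction). HR1 replicate 1 is red from Zdhhc21 to Bnc2 and blue for Lurap1l, and the LM9 tumours are red for Mpdz and blue for Frem1.

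The comparison of LM9 with LM1 uses no HR1 mean and addresses whether the lung-derived lines differ from each other at these genes. With edgeR's quasi-likelihood test on all 9 tumours, *Mpdz* exceeded its LM1 level in LM9 by 3.62 ± 0.48 (log2 fold change ± SE, adjusted p = 0.00228), 489.8 ± 56.3 against 39.9 ± 9.59 CPM (mean ± s.d., n = 3 each). *Frem1* was lower in LM9 by the same test, with a log2 fold change of -6.34 ± 1.28 (adjusted p = 0.0111). Summed over tumours, 490 counts in LM1 stood against 6 in LM9, a ratio after scaling of 87.8 with a 95% interval of 40 to 240.3 for counting error alone. These were the 2 members called, where 22.0% of all genes were. Without LM9 replicate 3 *Frem1* had adjusted p = 0.0508, and with limma-voom 0.144. Its log2 fold change was -8.06 without LM9 replicate 1, which holds 5 of the 6 counts, and -5.83 without LM9 replicate 2. The spread in this fit is shared with HR1, in which replicate 1 was far from the others. Without HR1 replicate 1 all 7 members were called, 2 higher and 5 lower in LM9, with 45.5% of all genes called. With the 6 LM tumours alone the count was again 7, with 56.3% of all genes called, and the median log2 fold change was -0.69 over the members and 0.00 over all genes.

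In the fit of the 6 LM tumours, *Lurap1l* was higher in LM9 by 1.65 ± 0.13 (edgeR, adjusted p = 1.4e-06), 114 ± 16.3 against 36.1 ± 2.59 CPM. *Mpdz* and *Lurap1l*, the 2 genes before *Nfib*, were thus the 2 that rose. The 5 beyond *Nfib* fell: beside *Frem1*, *Snapc3* changed by -1.01 ± 0.11 (adjusted p = 1.7e-05), *Zdhhc21* by -0.87 ± 0.13 (1.6e-04), *Psip1* by -0.69 ± 0.13 (9.3e-04) and *Ttc39b* by -0.41 ± 0.10 (0.00494). All 7 members were without overlap between the 3 LM1 and the 3 LM9 tumours, as were 63.0% of all genes. An exact permutation test of single genes cannot give less than p = 0.1 for 3 against 3 tumours, which each of the 7 reached. *Nfib* was lower in LM9, at -0.50 ± 0.15 (edgeR, adjusted p = 0.0165), 512 ± 83.2 against 719 ± 121 CPM, with 1 LM9 tumour inside the LM1 range, and was not called with all 9 tumours (-0.49 ± 1.29, adjusted p = 0.812). Marker sums also differed between the LM models. Epithelial markers were at 156 to 179.8 CPM in LM1 and 13.6 to 16.3 in LM9, leukocyte markers at 81.2 to 86.5 and 156 to 184, endothelial markers at 163 to 226 and 252 to 289.8, and fibroblast markers at 10357 to 13780 and 8971 to 10533, the 1 sum that overlapped. Single genes carried these sums. *Krt14*, a basal keratin, made up 152 to 175 CPM of the epithelial sum in LM1 and 12.2 to 15.4 CPM in LM9, while *Epcam* was lower in LM1 (0.0254 to 0.273 CPM) than in LM9 (0.622 to 0.698 CPM). Of the leukocyte sum, *Cd68* was at 15.9 to 17.9 CPM in LM1 and 107 to 138 CPM in LM9, whereas *Lyz2* was at 26.7 to 30.1 and 9.16 to 17.5 CPM and *Csf1r* at 18.2 to 21.1 and 7.14 to 11.7 CPM. Of the endothelial sum, *Cdh5* made up 136 to 254 CPM in the LM tumours, while *Pecam1* was at 0.383 to 1.25 CPM. The part of these markers in the result was not tested.

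Against HR1, *Frem1* and *Mpdz* in LM9 and *Frem1* in LM1 were called with and without replicate 1, and the calls of other members depended on it. With all 9 tumours, 1 member was called in LM1 versus HR1 (*Frem1*, -3.86 ± 0.93, edgeR, adjusted p = 0.0132), where 35.5% of all genes were called. In LM9 versus HR1, 2 members were called, *Mpdz* (4.59 ± 0.50, adjusted p = 3.5e-04) and *Frem1* (-10.20 ± 1.36, adjusted p = 8.4e-04), where 42.3% of all genes were called. The fitted values of *Frem1* in LM9 rest on 6 counts, and the value moved to -11.92 without LM9 replicate 1. Without HR1 replicate 2 or 3 the counts were 3 members in LM1, where 33.3% and 36.6% of all genes were called, and 6 in LM9, where 39.0% and 43.5% were. The added calls were all lower than HR1, *Ttc39b* and *Psip1* in LM1 and these with *Zdhhc21* and *Snapc3* in LM9. Without HR1 replicate 1, *Ttc39b* and *Psip1* were called higher in LM1 instead. Without LM1 replicate 1 or 2 *Frem1* had adjusted p = 0.0581 and 0.0527 in LM1, or 0.0522 with the replicate number as a block. The fits with HR1 replicate 1 include the tumour that led to the choice of the genes. The HR1 means then carried large errors, such as 440.3 ± 681 CPM for *Psip1* and 391 ± 594 CPM for *Ttc39b* (mean ± s.d., n = 3).

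Without HR1 replicate 1, all 7 members differed between LM1 and the 2 remaining HR1 tumours, where 52.8% of all genes did. LM1 was higher for *Mpdz* (1.65 ± 0.30, edgeR, adjusted p = 0.00167), *Zdhhc21* (1.48 ± 0.25, 9.4e-04), *Snapc3* (1.29 ± 0.19, 4.4e-04), *Psip1* (0.77 ± 0.15, 0.00189) and *Ttc39b* (0.54 ± 0.11, 0.00309). LM1 was lower for *Frem1* (-2.12 ± 0.48, 0.00477) and *Lurap1l* (-0.61 ± 0.15, 0.00707). For each of the 7, the LM1 tumours did not overlap with HR1 replicates 2 and 3, which held for 65.9% of all genes. *Nfib* was higher in LM1 by 5.10 ± 0.25 (adjusted p = 7.6e-07), a larger difference than that of any member. The members' median was 0.77, against 0.01 over all genes.

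In LM9 versus the same 2 HR1 tumours, 3 of the 7 members were called, where 55.7% of all genes were. *Mpdz* was higher in LM9 by 5.26 ± 0.36 (edgeR, adjusted p = 5.4e-06) and *Lurap1l* by 1.04 ± 0.16 (adjusted p = 4.3e-04), and *Frem1* was lower, at -8.46 ± 0.70 (adjusted p = 1.6e-05). The other 4 had small differences, 0.62 ± 0.24 for *Zdhhc21* (adjusted p = 0.0526), 0.29 ± 0.19 for *Snapc3* (0.215), 0.14 ± 0.11 for *Ttc39b* (0.31) and 0.09 ± 0.15 for *Psip1* (0.632). *Nfib* was higher in LM9 by 4.61 ± 0.24 (adjusted p = 8.0e-07). *Psip1* and *Snapc3* overlapped between LM9 and these HR1 tumours, and *Ttc39b* was at 50.3 to 54.9 CPM in LM9 against 45.8 and 49.7 CPM. The 3 comparisons share tumours and are not independent of each other. Fibroblast markers summed to 22039 and 22866 CPM in HR1 replicates 2 and 3 and to 8971 to 13780 CPM in the LM tumours, endothelial markers to 23.7 and 4.4 CPM against 163 to 289.8 CPM, and epithelial markers to 34.9 and 121 CPM against 156 to 179.8 CPM in LM1 and 13.6 to 16.3 CPM in LM9. Not every marker followed its sum. *Dcn* was at 432 and 329 CPM in these HR1 tumours and at 562 to 645 CPM in LM1 but 15.9 to 76.8 CPM in LM9, and *Pecam1* at 6.42 and 1.18 CPM against 0.383 to 1.25 CPM in the LM tumours.

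**Figure D4:**
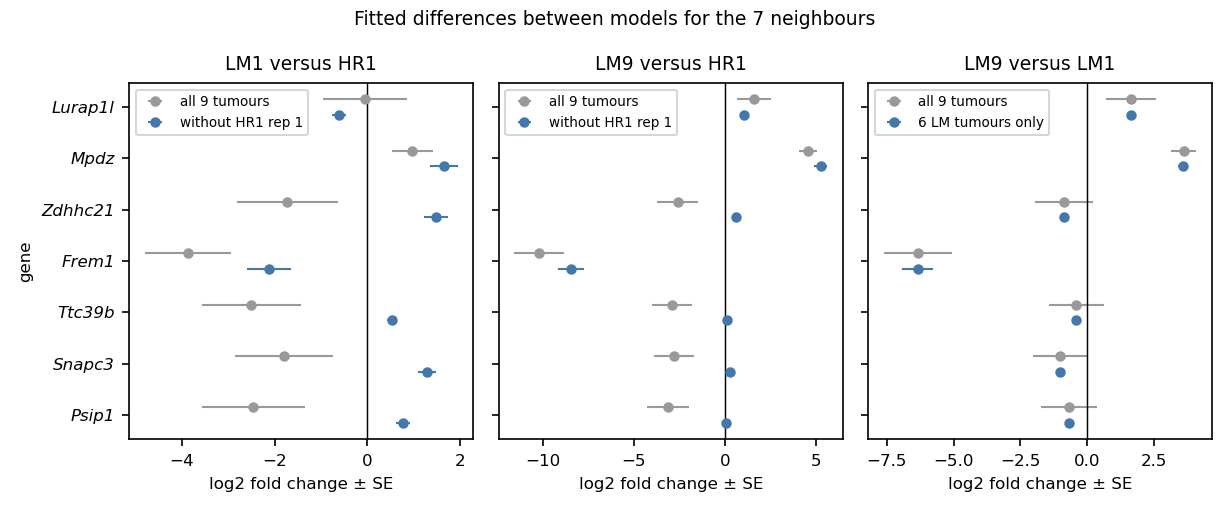
Log2 fold changes (x axis, ± SE) of the 7 neighbours (y axis) from edgeR's quasi-likelihood fits, with all 9 tumours in grey and, in blue, without HR1 replicate 1 (left and middle panels) or with the 6 LM tumours alone (right panel). Without HR1 replicate 1 the differences of Zdhhc21, Ttc39b, Snapc3 and Psip1 from HR1 lie between 0.09 and 1.48, against -3.14 to -1.72 with all tumours, and the errors of LM9 versus LM1 are smaller with the 6 LM tumours alone.

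The partners of the members' products were followed in 7 lists with 83 tested genes in all. In LM9 versus LM1, 11 of the 83 were called in the fit of all tumours, 7 higher and 4 lower, or 13.3% against the 22.0% of all genes. Without HR1 replicate 1 the count was 32, or 38.6% against 45.5%, and with the 6 LM tumours alone 40 of 82, or 48.8% against 56.3%. The counts per list that follow are from the fit of all tumours.

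Partners of MPDZ in cell polarity and tight junctions had 2 of 14 tested genes called, both higher in LM9. *Tjp1*, which encodes the junction scaffold ZO-1, was at 68.6, 87.8 and 62 CPM in LM1 and at 207, 208 and 188 CPM in LM9 (log2 fold change 1.47, edgeR, adjusted p = 0.00323). *Mpp5*, the gene of the polarity protein PALS1, was higher by 0.47 (adjusted p = 0.0398), and *Amotl1*, an angiomotin relative that binds junction scaffolds, was at 0.70 (adjusted p = 0.149). The list's median was 0.04, against 0.00 over all genes.

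The Fraser complex list had 4 of 9 genes called, 1 higher and 3 lower in LM9, with a median of -0.70. Of the 9, *Ncoa2* codes for a nuclear receptor coactivator and was matched by a synonym, so it is not of this complex. It was not called here (-0.40, edgeR, adjusted p = 0.122), but was with the 6 LM tumours alone (-0.42, adjusted p = 0.038). The counts and medians of this list, and the totals over the lists, include it. *Fras1*, which encodes a partner of FREM1 in the complex, was at 9.01, 10 and 7.47 CPM in LM1 and at 1.27, 0.549 and 0.855 CPM in LM9 (log2 fold change -3.31, edgeR, adjusted p = 0.0169). *Fras1* was also highest in HR1 replicate 1, at 21 CPM against 3.15 and 3.76 CPM in replicates 2 and 3. *Hmcn1*, the gene of the matrix protein hemicentin, fell from 20.7, 28 and 22.2 CPM in LM1 to 1.76, 1.1 and 0.518 CPM in LM9 (-4.39, adjusted p = 0.00104). *Frem3*, a relative of *Frem1*, was at 0.229 to 1.22 CPM in LM1, 0 to 0.0229 CPM in LM9 and 0 to 0.0515 CPM in HR1. It could pass the filter on low counts only through LM1. Its being called lower in LM9 (edgeR, adjusted p = 0.00997) is thus a description, though it is 1 of the 3 lower genes.

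Of 18 other ZDHHC enzymes, 2 were called, with *Zdhhc7* lower in LM9 (-0.94, edgeR, adjusted p = 0.00453) and *Zdhhc20* higher (0.43, adjusted p = 0.047), and *Zdhhc2* at -0.79 (adjusted p = 0.0529). The list around LURAP1 and MRCK had 2 of 9 genes called, *Myo18a*, an unconventional myosin bound by LURAP1 (0.93, adjusted p = 0.0309), and *Cdc42bpg*, an MRCK kinase (1.22, adjusted p = 0.0423), both higher in LM9. *Cdc42* itself was at -0.43 (adjusted p = 0.101). The list of SNAPc subunits and other genes linked to small nuclear RNAs had 1 of 11 called. It was *Hexim1* (0.71, adjusted p = 0.0485), which does not encode a SNAPc subunit. The subunit genes *Snapc2* and *Snapc5* were at 0.45 (adjusted p = 0.0627) and -0.80 (adjusted p = 0.171).

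The list of LEDGF partners had 0 of 12 genes called by edgeR in LM9 versus LM1 in the fit of all tumours, with 4 at an unadjusted p under 0.05, 2 called by limma-voom and 3 by DESeq2. Without HR1 replicate 1 edgeR called 6 of them, 5 higher and 1 lower in LM9, and with the 6 LM tumours alone 7, 6 higher and 1 lower. Its 3 genes with the smallest p were *Hdgfl2*, a relative of LEDGF, at 0.43 (edgeR, adjusted p = 0.0506), *Iws1*, an elongation factor it binds, at 0.51 (0.0627) and *Asxl1*, a Polycomb-linked regulator, at 0.71 (0.0668). The TTC39 and liver X receptor list had 0 of 10 genes called by edgeR in the fit of all tumours, with 3 at an unadjusted p under 0.05, 1 called by limma-voom and 2 by DESeq2. In this list edgeR called 3 genes without HR1 replicate 1 and 4 with the 6 LM tumours alone, all higher in LM9. In it *Ttc39c*, a paralogue of *Ttc39b*, was at 1.05 (adjusted p = 0.0533), *Srebf1*, a receptor target, at 0.43 (0.0677) and *Mylip*, another target, at 0.82 (0.0971).

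In LM9 versus LM1 without HR1 replicate 1, edgeR called 3 of 14 polarity, 6 of 9 Fraser and 6 of 18 ZDHHC genes. It also called 5 of 9 LURAP1 and 3 of 11 SNAPc genes there, where 45.5% of all genes were called. With the 6 LM tumours alone, these were 3 of 14, 8 of 9, 8 of 18, 6 of 8 and 4 of 11. There 56.3% of all genes were called, and the 8 Fraser genes include *Ncoa2*.

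Against HR1 with all 9 tumours, 31 of the 83 list genes were called in LM1, or 37.3%, and 36 in LM9, or 43.4%, near the 35.5% and 42.3% of all genes. The polarity list had 4 called in LM1 (3 higher and 1 lower than in HR1) and 6 in LM9 (4 and 2). The Fraser list had 3 in LM1 (1 higher and 2 lower) and 3 in LM9, all lower. The 1 higher in LM1 was *Frem3*, which could pass the filter only through LM1. The SNAPc list had 3 in LM1 (2 higher and 1 lower) and 5 in LM9, all higher. For LURAP1 and MRCK the counts were 5 in LM1 (1 higher and 4 lower) and 2 in LM9, both lower. Of the other ZDHHC enzymes 7 were called in LM1 (3 higher and 4 lower) and 6 in LM9 (3 and 3). The TTC39 and liver X receptor list had 7 called in either, all 7 lower in LM1 and 6 lower in LM9, with medians of -1.08 and -0.69. *Mylip*, which encodes a ubiquitin ligase for the low-density lipoprotein receptor, was at 15.2, 34.5 and 31.1 CPM in HR1, at 2.88, 4.42 and 4.19 CPM in LM1 and at 7.06, 7.48 and 5.69 CPM in LM9. The LEDGF list had 2 called in LM1 and 7 in LM9, all higher than in HR1, with list medians of 0.46 and 0.83.

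When HR1 replicate 1 was left out, 51 of the 83 list genes were called in LM1, or 61.4% against 52.8% of all genes, and 52 in LM9, or 62.7% against 55.7%. The Fraser list then had 6 called in LM1, 4 higher and 2 lower, which turned its balance, and 3 in LM9, all lower. *Frem3* was again among those higher in LM1. The polarity list had 7 (3 higher and 4 lower) and 11 (6 and 5), the SNAPc list 6 (5 and 1) and 8 (7 and 1), and the ZDHHC enzymes 13 (5 and 8) and 11 (4 and 7). The LEDGF list had 5 and 8 called, all higher. The TTC39 and liver X receptor list had 9 called in LM1, all lower, and 8 in LM9, 1 higher and 7 lower. LURAP1 and MRCK had 5 (1 and 4) and 3, all lower.

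With the members and *Nfib* left out of the ranking, the 5 genes most like the median profile of the members over the 9 tumours lay on other chromosomes. They were *Cd2bp2* (chromosome 7), *Cebpd* (16), *Igfbp7* (5), *Zc3h10* (10) and *Dpy19l1* (9), with Pearson's r of log2 CPM from 0.97 to 0.99 among the 12377 genes whose mean reached 1 CPM. *Igfbp7* was at 2557 CPM in HR1 replicate 1, 215 and 239 CPM in replicates 2 and 3, 391 to 444 CPM in LM1 and 187 to 278 CPM in LM9. This likeness rests largely on HR1 replicate 1, and without it r was 0.74 to 0.96 for the 5 genes over 8 tumours. The 7 members were compared with *Nfib* by the same measure. Their values cannot be set against those of the 5 genes, which were picked as the highest against another profile. The closest was *Zdhhc21*, with r = 0.65 and rank 1575 of 12376 genes, and the farthest *Lurap1l*, with r = -0.32 and rank 8402. Without HR1 replicate 1, *Zdhhc21* was still the closest (r = 0.81, rank 1845), *Frem1* became the farthest (r = -0.57, rank 8934), and *Lurap1l* was at r = 0.03. These correlations describe 9 libraries of 3 models and carry no test.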

How the data were processed

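Single-end reads of 50 nt from 9 tumours were, according to the study's methods, aligned to mm10 with STAR, and the authors deposited raw counts of read 5′ ends on the exons of each gene (qCount of QuasR), without normalization. Symbols and positions came from GENCODE and RefSeq tables of GRCm38, and 14085 of 14108 genes had a symbol. Total counts were 32393958 to 46681945 per tumour. TMM factors were 0.928 to 1.05, and log2 CPM used a prior count of 2. The test was edgeR 4.0.16 (filterByExpr, glmQLFit with robust estimation, glmQLFTest, R 4.3.3) over the 3 models, without covariates, adjusted over all genes by Benjamini-Hochberg at 0.05. Standard errors were derived from the F statistic. Replicate numbers did not pair the tumours. The fit was tested on simulated counts. Alternatives were DESeq2 1.42.0, limma-voom (limma 3.58.1), other size factors, filters and a 2-fold minimum, a replicate block, only the 6 tumours compared and each tumour left out. The named genes were the members, *Nfib* and the listed genes between and next to the members. Up to 3 genes per list with the smallest p in LM9 versus LM1 were named too. So were the 5 genes most like the members' median profile, outside the members and *Nfib*. The members and lists were chosen with earlier results of these data known.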

Additional observations from a re-analysis of the deposited data

Results flagged for a closer look

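Among the neighbours, 2 genes differed from HR1 to a different extent in the LM models, by the test of LM9 versus LM1 itself (edgeR, all 9 tumours). In that fit 22.0% of all genes were called. All 7 members were called without HR1 replicate 1 and with the 6 LM tumours alone, beside 45.5% and 56.3% of all genes. The effect for *Mpdz* was larger in LM9 by 3.62 on the log2 scale, with all 3 LM9 tumours above all other tumours. The effect for *Frem1* was more negative in LM9, by -6.34, and 6 counts in the 3 LM9 tumours stood against 490 in LM1.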

How the results depend on the processing

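Leaving out each tumour in turn moved the number of members called from 1 to between 0 and 7 in LM1 versus HR1, from 2 to between 2 and 6 in LM9 versus HR1 and from 2 to between 1 and 7 in LM9 versus LM1. The number of all genes called moved too, between 3121 and 7453, 3768 and 7862, and 1150 and 6413, against 4994, 5958 and 3102. The counts of 7 came without HR1 replicate 1, those of 6 without HR1 replicate 2 or 3, those of 0 without LM1 replicate 1 or 2, where *Frem1* had adjusted p = 0.0581 and 0.0527, and that of 1 without LM9 replicate 3, where it had 0.0508. With limma-voom, 2 members were called in LM1 versus HR1 (5076 of all genes) and 1 in LM9 versus LM1 (3465), where *Frem1* had adjusted p = 0.144. With only the 6 tumours compared, 7 were called in LM9 versus LM1 (7709). DESeq2 called 1, 2 and 2 (5852, 6669 and 4304), and gave no adjusted p for *Zdhhc21*, *Ttc39b*, *Snapc3* and *Psip1*. The other size factors and filters kept each count within 1.5 times. Log2 fold changes against HR1 changed direction when 1 tumour was left out. In LM1 they ran from -0.61 to 0.50 (*Lurap1l*), -2.27 to 1.48 (*Zdhhc21*), -3.03 to 0.54 (*Ttc39b*), -2.33 to 1.29 (*Snapc3*) and -2.99 to 0.77 (*Psip1*). In LM9 they ran from -3.13 to 0.62 (*Zdhhc21*), -3.42 to 0.14 (*Ttc39b*), -3.34 to 0.29 (*Snapc3*) and -3.68 to 0.09 (*Psip1*). The highest values came without HR1 replicate 1, except for *Lurap1l*, whose lowest did. In LM1 versus HR1, limma-voom turned *Lurap1l* to 1.01 and *Zdhhc21* to 0.09. The cause was not tested.

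Called list genes ranged from 16 to 51 in LM1 versus HR1, from 20 to 52 in LM9 versus HR1 and from 3 to 32 in LM9 versus LM1 when 1 tumour was left out. The highest came without HR1 replicate 1. With only the 6 tumours compared, an alternative chosen after seeing the data, the counts were 14, 23 and 40, against 31, 36 and 11, while all genes called went to 3008, 4247 and 7709.

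Replicate numbers did not pair the tumours (correlation of same-numbered deviations -0.12 to 0.16). With the replicate block, 0 members were called in LM1 versus HR1 (4204 of all genes), where *Frem1* had adjusted p = 0.0522 and *Lurap1l* turned to 0.38, and 7 list genes in LM9 versus LM1.

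The level in HR1 replicate 1 was 1.56 above for *Mpdz*, 4.75 above for *Zdhhc21*, 3.07 above for *Frem1* and 6.0 above for *Nfib* when the mean of HR1 replicates 2 and 3 was the reference, against -0.29, 3.98, 5.45 and 1.27 from the median of 8 tumours. When each of the 8 was left out, the differences were -5.66 to -5.36 (*Lurap1l*), -0.51 to -0.07 (*Mpdz*), 3.96 to 4.0 (*Zdhhc21*), 5.05 to 5.85 (*Frem1*), 4.29 to 4.36 (*Ttc39b*), 4.19 to 4.24 (*Snapc3*) and 4.55 to 4.61 (*Psip1*). Depth limits *Frem1* in LM9, which rests on 6 counts.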
